A study of Ovis aries with 16 samples.

Results

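A window around the callipyge position of the imprinted DLK1-MEG3 domain was followed across 16 fetal sheep muscle methylomes. Members were the merged methylation peaks overlapping chr18:64000000-64800000 (Oar_v3.1), a window chosen by position and not by any measured value. Peaks of different fetuses that shared at least 1 bp were merged, and 345 of the 706111 merged regions of the genome fell in the window. They were built from 5129 peaks, and the 256 regions in which at least 2 fetuses had a peak entered the tests.

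Fetal longissimus dorsi (LD) muscle, the long muscle of the back, was taken in late gestation from fetuses of Polypay ewes. From mid-gestation until necropsy the ewes were fed alfalfa haylage (hay, 8 fetuses) or limited corn, a supplement and a little haylage (corn, 8 fetuses). The diets had equal metabolizable energy but were not matched in nutrients. Per the paper, daily intake of crude protein, methionine, serine and choline was higher on hay, and that of folate was higher on corn. Methylated DNA was captured with a methyl-binding domain protein and sequenced, and the peaks were called separately in each fetus. Every hay ewe and most corn ewes contributed a pair of twins, so each diet, which was given to the ewe, had fewer ewes than fetuses. Neither the dam nor the sex of a numbered fetus is given in the labels, so p-values treat the fetuses as independent and can be too small. The muscle identity could not be checked against marker genes, since no expression data were used here.

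In an imprinted domain, the allele that is expressed depends on the parent it came from. Here DLK1, which encodes a membrane protein of the Notch ligand type that restrains adipocyte differentiation, and RTL1, derived from a retrotransposon, are expressed from the paternal chromosome. MEG3, a long noncoding RNA also called GTL2 in sheep, and the microRNAs and small nucleolar RNAs that follow it are expressed from the maternal chromosome, and in mammals methylation of the paternal chromosome between DLK1 and MEG3 marks the parental origin. The callipyge substitution lies between DLK1 and MEG3 and causes heavy muscling of the hindquarters and loin when it is inherited from the sire alone. Methyl-binding capture reads both chromosomes together, so none of the values below separates the parental alleles.

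The gene order around the domain was read from the RefSeq table of another sheep assembly, ARS-UI_Ramb_v3.0, which lists BEGAIN, DLK1, GTL2 and RTL1 in this order and DIO3 at the far end. The 100 genes listed from BEGAIN to DIO3 include 55 microRNAs and 5 protein-coding genes. Positions from that assembly cannot be carried over to Oar_v3.1. Regions are therefore given by their coordinates and by their distance from the approximate callipyge position (64.29 Mb), and no region was assigned to a gene. How much of the window belongs to the imprinted domain is not known here.

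The strength of a peak is given as its score, −log10 of the deposited p-value, so that a higher score means a stronger enrichment call. The files hold no read counts, so the sequencing depth is unknown and the absence of a peak cannot be told apart from low coverage. The fetuses carried 261331 to 519923 peaks in the genome and 258 to 417 in the window. The number of peaks in the window moved with the number in the genome (Spearman's rho 0.894 over 16 fetuses, a description, since both counts come from the same library). The median score was 1.54 over the window's peaks and 1.47 over all peaks.

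The window was densely covered with peaks common to all fetuses. Of the 345 regions, 108 had a peak in every fetus and 89 had a peak in a single fetus, and 172 had a peak in at least 8. Regions found in an intermediate number of fetuses were fewer, from 2 regions in 10 fetuses to 29 regions in 2 fetuses. Of the tested regions, 42.2% were present in every fetus, against 17.7% in the rest of chromosome 18 and 17.3% in the whole genome. These shares are descriptions, because neighbouring regions are not independent of each other.

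The genome was also divided into 3221 windows of 800 kb, this one included, with each region placed by its midpoint. The DLK1-MEG3 window then held 107 regions present in every fetus, and the median window held 16. It stood above 95.8% of the windows by that count. By bases covered in at least one fetus it held 427233 against a median of 119262, above 95.2% of the windows. It was not alone at this level, since 136 windows, 5 of them on chromosome 18, held at least as many regions present in every fetus, itself counted.

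The regions present in every fetus were broad. Their merged width ran from 873 to 9235 bp with a median of 2320 bp, against a median of 1653 bp for such regions in the genome. They covered 299762 bases, or 37.5% of the window. The median of their median scores was 2.41, and that of the same class over the whole genome was 2.41 as well. Taken over all scores of the single fetuses, the median was 2.34 in these regions and 1.37 in those found in 2 to 15 fetuses. Regions found in 2 to 15 fetuses had a median width of 725.5 bp, and those of a single fetus had a median width of 180 bp and scores of 0.872 to 1.71. The width of a merged region grows with the number of peaks merged into it, so the widths of these classes are not independent of the counts that define them. Among the regions present in every fetus, wider regions tended to score higher (Spearman's rho 0.464 over 108 regions, a description; a wider region offers more peaks from which the highest is taken).

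Regions seen in a single fetus came mainly from a few animals. Corn fetus 4 contributed 25 of the 89 and hay fetus 15 contributed 17, whereas corn fetuses 6 and 13 contributed 0. Corn fetus 4 and hay fetus 15 also had 498464 and 519923 peaks in the genome, 2 of the 3 highest numbers, but corn fetus 7, with 499815, contributed 6.

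**Figure D1:**
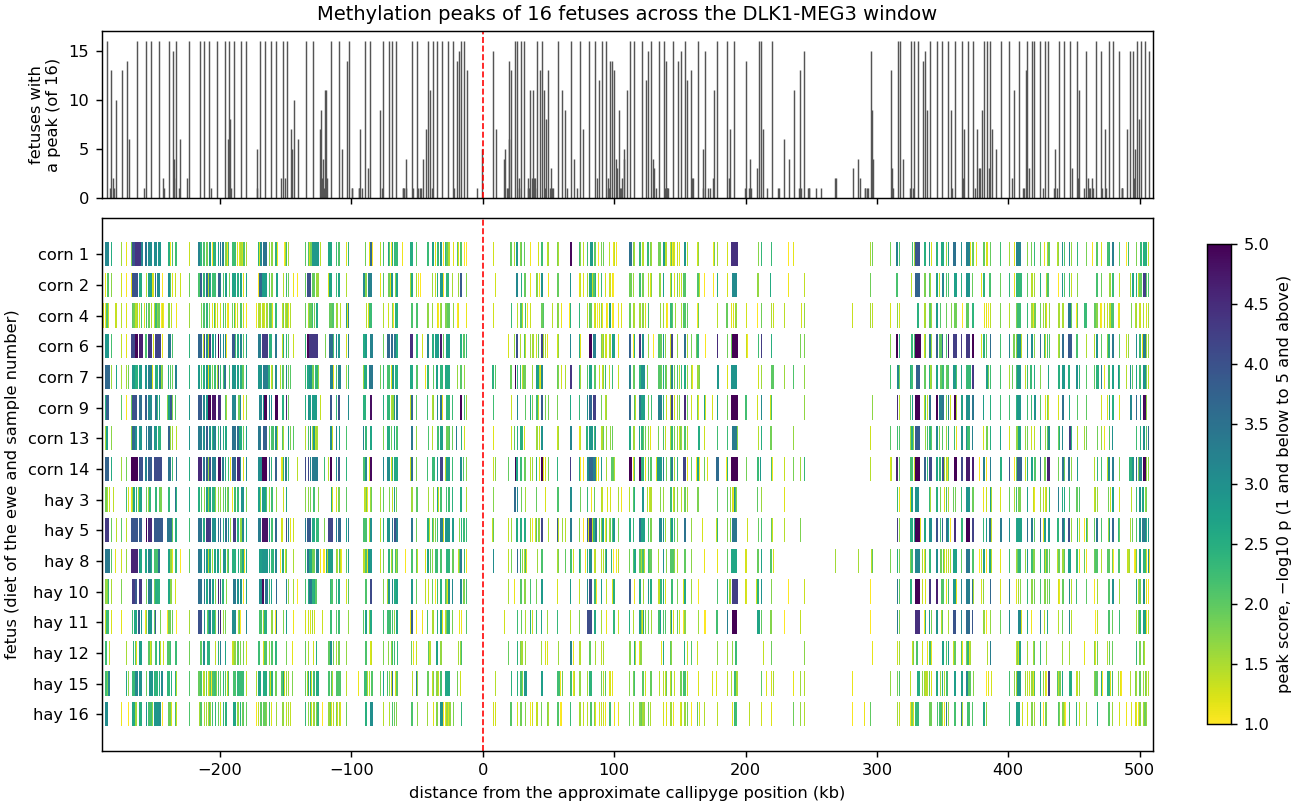
Peaks of the 16 fetuses along the window, by distance in kb from the approximate callipyge position (red dashed line). The upper panel gives for each merged region the number of fetuses with a peak, and the lower panel gives each fetus's own peaks coloured by score (−log10 p, from 1 and below to 5 and above). Dense peaks, the thin coverage around 0 kb and the poorly covered stretch before 300 kb recur in all fetuses.

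Coverage was uneven along the window. The first 100 kb was the most covered, with 39.4% ± 6.80 (SD, n = 8) of its bases under peaks in hay fetuses and 42.7% ± 3.49 (SD, n = 8) in corn fetuses. Between 64500000 and 64599999 coverage fell to 4.51% ± 1.60 (SD, n = 8) in hay and 5.86% ± 1.13 (SD, n = 8) in corn, and the highest of all 16 fetuses there, 7.77%, lay below the lowest fetus of every other 100-kb bin. That bin held 3 regions present in every fetus, and the other 7 bins held 12 to 19. Coverage rose again in the next bin, to 31.9% ± 5.08 (SD, n = 8) in hay and 35.5% ± 3.29 (SD, n = 8) in corn. The poorly covered stretch was thus a property of all fetuses and of both diets.

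Within that stretch lay the longest runs without a peak in any fetus. The longest was chr18:64587101-64600010, of 12910 bp, and the next was chr18:64558897-64571224, of 12328 bp, whereas the median gap between merged regions was 471 bp. No region present in at least 8 fetuses was found over 49669 bp (chr18:64535289-64584957), and none present in every fetus over 93088 bp (chr18:64511798-64604885). In bins of 10 kb, 2 of 80 bins had no peak in any fetus. At the other extreme, the bin starting at 64120000 had 54.3% to 83.9% of its bases under peaks, with a median of 73.9%. A run without peaks shows that no enrichment was called there, and low methylation, few CpG sites and poor mapping cannot be told apart in these files.

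The approximate callipyge position itself was not covered by a peak in any of the 16 fetuses. It lay just inside a run without peaks from 64289548 to 64297369 (7822 bp), the fourth longest of 345 such runs in the window. On its near side was a weak region, chr18:64289127-64289547, called in 3 hay and 2 corn fetuses with scores of 0.997 to 1.81. On its far side was chr18:64297370-64298642, called in 7 hay and 8 corn fetuses with scores of 1.04 to 3.08. Since the position is given only to about 10 kb, the base that carries the callipyge substitution may lie on either side of these edges.

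The neighbourhood of the position was sparse at a larger scale as well. Between the last region present in at least 8 fetuses before it and the first after it lay 19084 bp with 6 peaks in all (chr18:64278286-64297369), the second longest such interval of 172. Between regions present in every fetus the interval was 37662 bp (chr18:64276306-64313967), again the second longest, of 108. Before the position, regions present in every fetus covered 50.0% of the bases (45 regions in 290 kb), and after it 30.4% (63 regions in 510 kb). The side after it includes the distant, poorly covered bin from 64500000 to 64599999, so these shares do not describe the near neighbourhood alone.

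The interval ended, 24.0 kb beyond the callipyge position, at the strongest region of the window. This region, chr18:64313968-64315449 (1482 bp), had a median score of 6.56, against 3.91 for the next strongest. In hay fetuses its score was 3.56 at the lowest, 6.58 at the median and 9.25 at the highest, and in corn fetuses 4.05, 6.40 and 8.40. It was the highest-scoring region of the window in 14 of 16 fetuses and second in corn fetus 9 and hay fetus 12. The diets overlapped almost completely, and the lowest scores were spread over both, in hay fetuses 16, 3 and 12 and corn fetus 4. Those 4 fetuses also had the 4 lowest scaling factors, 0.765 to 0.833, that is, weaker scores across the genome, and after scaling the range on the log2(scaled score + 1) scale was 2.40 to 3.36.

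In the genome the region was strong but not exceptional by score, ranking 1274 among 88488 regions present in every fetus, within the top 1.44%. On chromosome 18 it ranked 36 of 2594. It is the highest of its window, and the highest median score of a window was 4.29 at the median of 3221 windows. Of these, 824 reached at least 6.56, this window counted. The ratio of its score to that of the best other region of the window was 0.873 to 1.80 in single fetuses, with a median of 1.24.

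**Figure D2:**
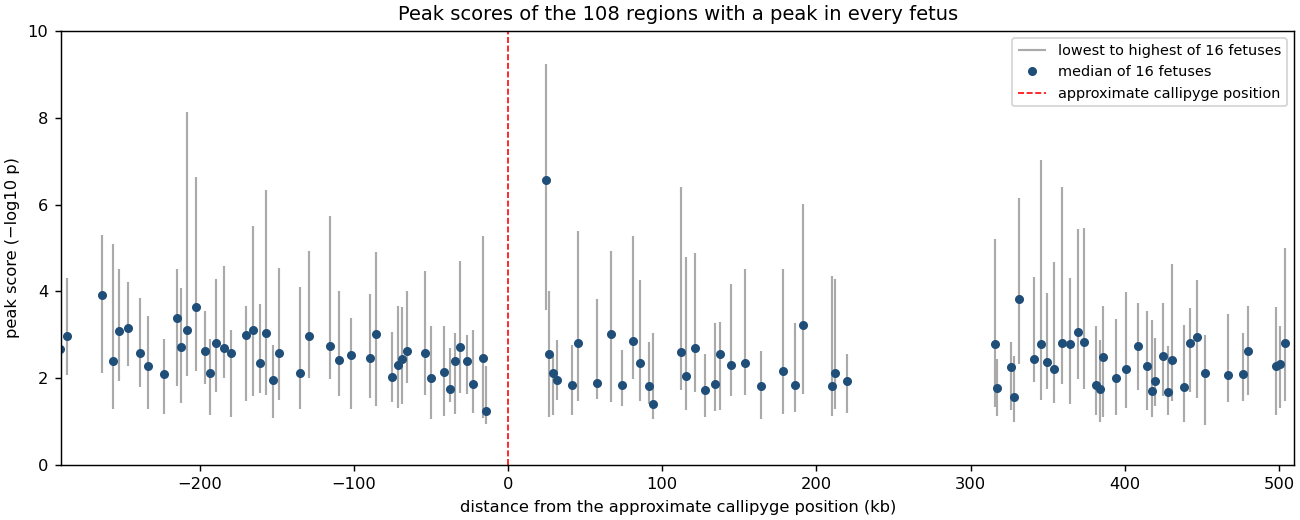
Scores of the 108 regions shared by all fetuses, by distance in kb from the approximate callipyge position (red dashed line). Points are medians of 16 fetuses and lines run from the lowest to the highest fetus. The region just beyond the position has a median of 6.56, and all others lie at 3.91 or below.

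The end of this region was placed more alike in all fetuses than the end of any other shared region, whereas its start was not. The best peak of a fetus, the one with its highest score, ended between 64315421 and 64315449 in all 16 fetuses, a range of 28 bp. The best peaks of the other 107 regions present in every fetus ended within ranges of 331 bp or more, and the median over the 108 was 1272 bp. A wider merged region leaves more room for the ends to differ. The strongest region, of 1482 bp, was narrower than the median shared region of 2320 bp, and the ranges were not adjusted for width. Over the genome the median range was 743 bp, and 146 of 88488 regions (0.165%) had a range of 28 bp or less. The start of the best peak in the strongest region ranged over 859 bp, and 35 of the 108 regions had a smaller range of starts. In 13 fetuses the best peak started between 64314943 and 64314989 and was 433 to 499 bp wide. In corn fetuses 7 and 14 and hay fetus 3 the best peak reached further back and was 1163 to 1307 bp wide. All 16 best peaks shared the 433 bp of chr18:64314989-64315421. A common core of this kind, covered by the best peak of every fetus, was found in 40 of the 108 regions.

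**Figure D3:**
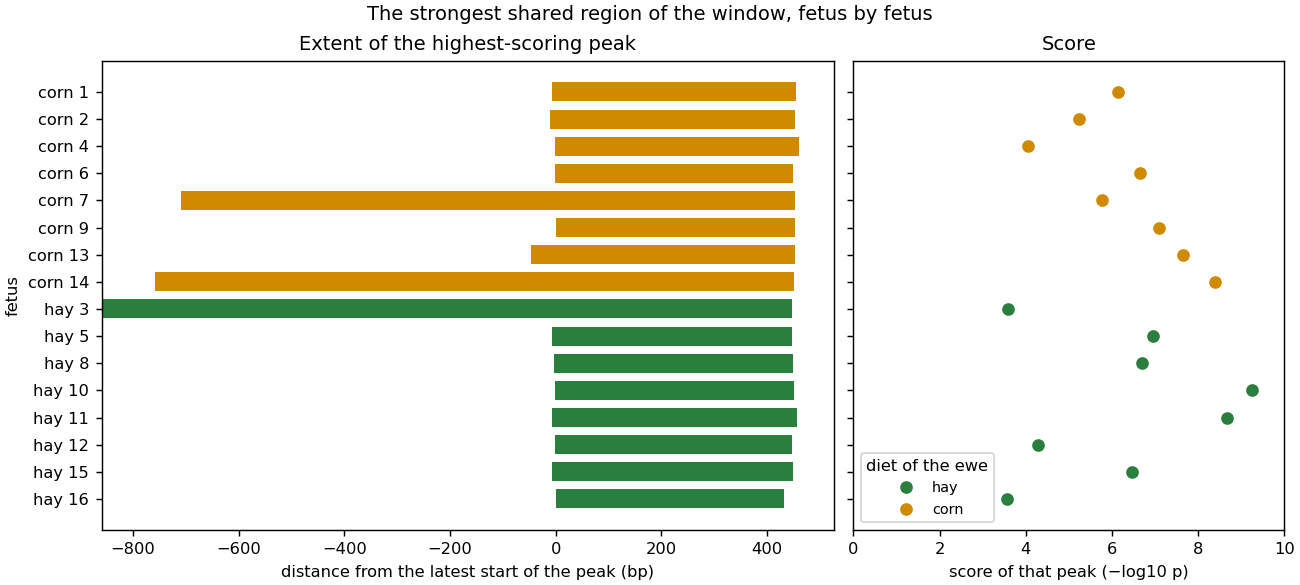
The strongest region fetus by fetus. The left panel shows the extent of each fetus's highest-scoring peak in bp from the latest start among the fetuses, and the right panel its score (−log10 p). All 16 peaks end within 28 bp of each other, 3 peaks extend further back, and hay (green) and corn (orange) scores overlap.

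The next strongest regions lay on both flanks and were far wider. The region at chr18:64022068-64031034 (8967 bp) had a median score of 3.91, with 2.61, 3.52 and 4.60 as the lowest, median and highest in hay and 2.12, 3.98 and 5.31 in corn. The region at chr18:64619123-64623545 (4423 bp), just beyond the poorly covered stretch, had a median of 3.82, with 2.33, 3.08 and 5.60 in hay and 2.46, 3.90 and 6.15 in corn. The regions at chr18:64083787-64090915 (7129 bp) and chr18:64073371-64076444 (3074 bp) had medians of 3.63 and 3.38. Every one of these had overlapping diets. The widest region of the window, chr18:64156111-64165345 (9235 bp), scored lower, with a median of 2.97.

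In the 2 fetuses in which the region beyond the callipyge position was not the strongest, different regions took its place. In corn fetus 9 it was chr18:64079399-64083347 with a score of 8.13, against a median of 3.11 over all fetuses there. In hay fetus 12 it was chr18:64404119-64406399 with a score of 4.80, against a median of 2.05. Each was thus high in 1 animal and not in its group.

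The comparison of hay with corn asked whether the diet of the ewe went with methylation in this window. No region of the window passed the test: 0 of 256 had an adjusted p under 0.1 (limma, Benjamini-Hochberg over 512238 regions), where 3 regions, or 0.000586%, did in the genome. The smallest adjusted p in the window was 0.919. With so few calls in the genome, finding none among 256 regions does not show that the diets are alike here. The paper, testing reads at the same FDR level, reported many more differing regions in the genome. At an unadjusted p under 0.05, 2 of 256 regions scored higher in hay and 4 higher in corn, against a background of 1.43% of regions for hay and 1.73% for corn. These counts are small and near that background, and they moved in other fits. With presence of a peak in place of the score, 2 regions were higher in hay and 9 in corn among the 148 that could be fitted. The genome's share in that fit, both directions together, was 2.81%. The window's share was above it, mostly towards corn, and the reason was not tested. With scores unscaled, 1 was higher in hay and 12 in corn of 256. The genome's share there, both directions together, was 5.68%, which the window did not exceed. The smallest adjusted p was 0.7476 and 0.7365 in these fits (limma). In no region did the diets fail to overlap, and 0.00605% of regions in the genome showed such a separation.

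The totals over the window also overlapped between diets. Hay fetuses had 322.6 ± 43.2 (SD, n = 8) peaks in the window, with 258, 324.5 and 371 as the lowest, median and highest, and corn fetuses 318.5 ± 43.9 (SD, n = 8), with 272, 307 and 417. The share of the window under peaks was 26.2% ± 5.42 (SD, n = 8) in hay and 29.7% ± 2.52 (SD, n = 8) in corn. Hay ran from 17.9% to 33.4% around a median of 25.7%, and corn from 26.3% to 33.0% around 29.8%. The lowest coverage was in hay fetuses, but the highest hay fetus exceeded every corn fetus. Mean coverage was lower in hay in all 8 bins of 100 kb, and in none did the diets separate. Peaks of hay fetuses also covered fewer bases in the whole genome, 216735674 ± 43010028 (SD, n = 8) against 232925388 ± 28577390 (SD, n = 8) in corn. The difference of -27536 bases between hay and corn became -11969 when each fetus was scaled to its genome total. The difference of 4.12 peaks became 0.045 with the same scaling, and 14.5 when peaks under the 25th percentile of their fetus were left out.

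**Figure D4:**
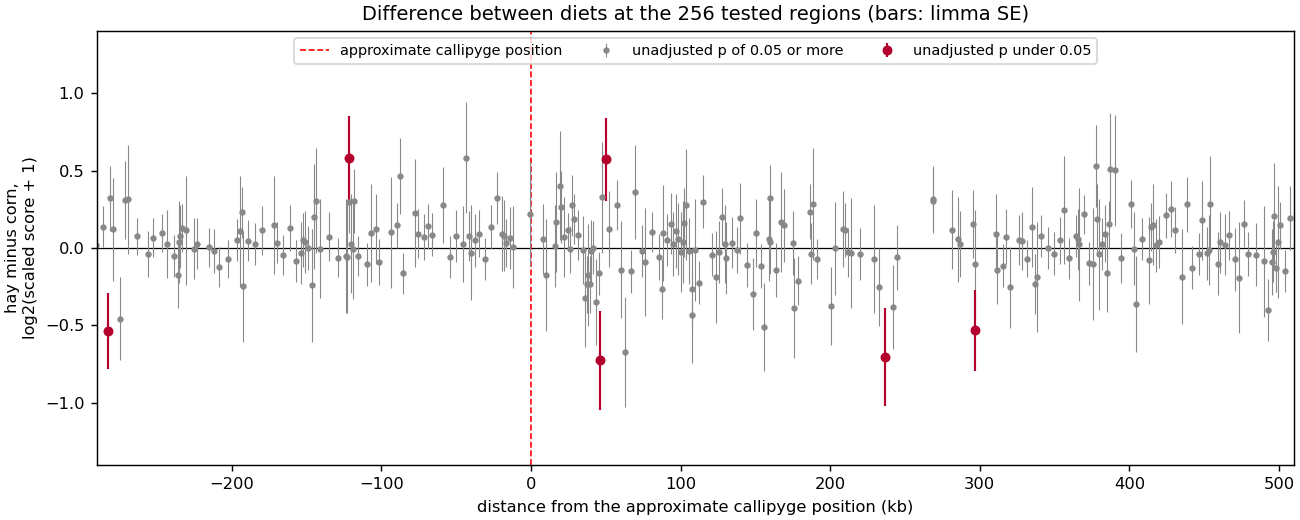
Difference between diets (hay minus corn, log2(scaled score + 1)) at the 256 tested regions, by distance in kb from the approximate callipyge position, with bars of 1 SE from limma. Red points mark the 6 regions with an unadjusted p under 0.05, 2 above and 4 below 0, and no region passed the adjusted threshold.

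The direction of the small differences depended on the scaling. Of the 256 regions, 57.8% scored higher in hay, where 53.9% did in the genome, with a median difference of 0.03 on the log2 scale. With scores left unscaled, 31.6% of the window's regions scored higher in hay (40.4% in the genome), and the median difference was -0.08 in the window and -0.05 in the genome. With each score replaced by its percentile within the fetus, 47.7% did, against 46.9%. No direction for the window as a whole can therefore be given.

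At the strongest region hay stood at 2.87 ± 0.38 (SD, n = 8) and corn at 2.75 ± 0.15 (SD, n = 8) on the log2(scaled score + 1) scale. The difference of 0.12 (SE 0.11) was within the spread of the fetuses (limma, adjusted p = 0.987; two-sided exact permutation test, p = 0.43), and it turned to -0.08 without scaling. At the 4 next strongest and the widest region the differences ran from -0.07 to 0.07 with SEs of 0.12 to 0.13, and the limma adjusted p was 1 at each. Of these, the differences at chr18:64022068-64031034 and chr18:64073371-64076444 also turned negative without scaling. On either side of the callipyge position, chr18:64289127-64289547 differed by 0.22 (SE 0.34) and chr18:64297370-64298642 by 0.06 (SE 0.22), the latter turning to -0.06 without scaling.

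The 5 regions with the smallest limma p in the window were chosen among 256 for that p. All had an adjusted p of 0.919 (limma), and all were weak and present in part of the fetuses. Their differences rested on whether a peak was called, as the values show. For presence, Fisher's exact test gave an unadjusted p of 0.0256 at chr18:64336020-64336888 and at chr18:64526303-64527196. By the same test p was 0.2 at chr18:64006968-64007788 and at chr18:64338852-64340782, and 0.0769 at chr18:64168258-64168581.

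Of these 5, 3 scored higher in corn. At chr18:64336020-64336888, 46.5 kb beyond the callipyge position, all 8 corn fetuses had a peak, with scores of 0.893, 1.37 and 2.08 as lowest, median and highest, and 3 of 8 hay fetuses had one (limma difference -0.73, SE 0.32, unadjusted p = 0.0252; exact permutation test, p = 0.0173). At chr18:64526303-64527196, within the poorly covered stretch, 8 corn fetuses (0.988, 1.31 and 2.11) and 3 hay fetuses had a peak (limma difference -0.70, SE 0.32, unadjusted p = 0.0277; exact permutation test, p = 0.0205). At chr18:64006968-64007788, 8 corn and 5 hay fetuses had a peak (limma difference -0.54, SE 0.25, unadjusted p = 0.0314; exact permutation test, p = 0.0998). At each of the 3 the hay fetuses that had a peak lay within or above the range of corn on the log2(scaled score + 1) scale, so the diets overlapped.

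The other 2 scored higher in hay. At chr18:64338852-64340782, under 2 kb from the first of the regions higher in corn, all 8 hay fetuses had a peak, with scores of 1.08, 1.31 and 1.74, and 5 of 8 corn fetuses had one (limma difference 0.57, SE 0.27, unadjusted p = 0.0361; exact permutation test, p = 0.0228). At chr18:64168258-64168581 peaks were called in 4 hay fetuses, with scores of 1.10 to 1.24, and in 0 corn fetuses (limma difference 0.58, SE 0.27, unadjusted p = 0.0365; Fisher's exact test, p = 0.0769). The sixth region under 0.05, chr18:64586848-64587100, lay outside the naming rule and is named because its p was seen: peaks were called in 0 hay and 4 corn fetuses (limma difference -0.53, SE 0.26, unadjusted p = 0.0433). The regions chr18:64168258-64168581 and chr18:64586848-64587100 passed the filter of at least 2 fetuses through a single diet. Their p-values are therefore no support for a difference. Neighbouring regions thus differed in opposite directions, and none of the differences under 0.05 held after adjustment.

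**Figure D5:**
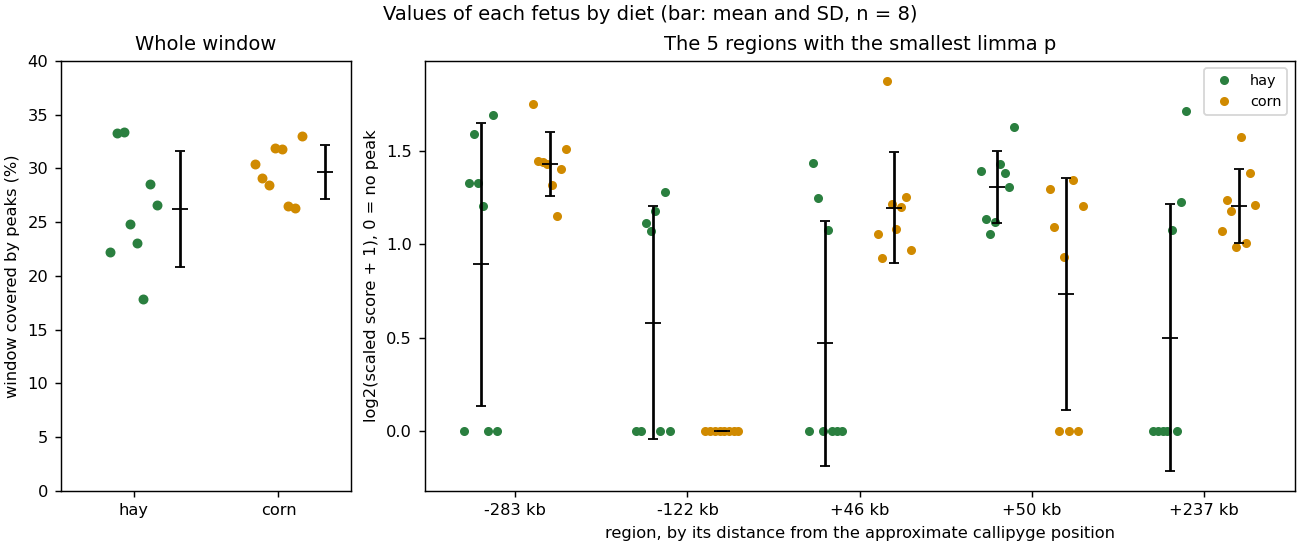
Values of each fetus by diet, hay in green and corn in orange, with bars for the mean and SD (n = 8). The left panel gives the percentage of the window under peaks, and the right panel log2(scaled score + 1) at the 5 regions with the smallest limma p, placed by distance from the callipyge position, where 0 stands for no peak. The groups overlap in every panel, and the differences on the right follow the fetuses at 0.

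A split in the presence of a peak, with at least 6 fetuses of one diet and at most 2 of the other, was found once. The region chr18:64352298-64353153, 62.7 kb beyond the callipyge position, had a peak in 7 corn and 2 hay fetuses (Fisher's exact test, p = 0.0406, unadjusted; limma difference -0.67, SE 0.35, adjusted p = 0.919). Its scores were 0.886 to 1.79 in the corn fetuses with a peak and 1.44 and 1.97 in the 2 hay fetuses. In the genome 0.575% of tested regions had such a split towards corn, and 1 region of 256 is near that background. No region of the window had the opposite split towards hay, which 0.256% of regions had in the genome.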

How the data were processed

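The members and gene lists were chosen with earlier results of these data known. Per the methods and the submitters' processing notes, trimming (Trimmomatic 0.33), alignment to Oar_v3.1 (BWA 0.7.15), duplicate removal (Picard 1.107) and peak calling per library (ChIPseeqer) were done by the authors. The deposited value of a peak was read as its p-value (0 to 0.1352 over 6410742 peaks). The files state neither its name nor a threshold, and they give no depth.

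The score was −log10 of that p-value, with 1e-100 in place of 0, which no window peak held. Within a merged region, each fetus was represented by its best peak, whose score was divided by a factor (0.7647 to 1.383), the median ratio over the 88488 regions found in every fetus, and taken as log2(scaled score + 1), with 0 for no peak. All regions found in at least 2 fetuses (512238) were fitted together with limma 3.58.1 in R 4.3.3 (lmFit, then eBayes with a trend). Adjusted p-values (Benjamini-Hochberg) under 0.1, the study's FDR level, counted as passing. This step was tested on simulated data. Single regions were also compared by two-sided exact permutation over 12870 assignments (smallest p 0.0001554) and by Fisher's exact test for presence, in Python 3.11.15 with scipy 1.17.1. Totals and shares over the window were given no test. The authors' own test used reads (DiffBind and edgeR) and was not repeated here.

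The text names the 5 strongest and the 3 widest regions, the 2 longest runs without peaks, the neighbours of the callipyge position, the 5 smallest limma p and any region found in at least 6 fetuses of one diet and at most 2 of the other. Alternatives covered scaling, pseudocount, peak and region filters, presence, merging and a covariate. Leaving out each fetus from the count of shared regions was added after seeing the data.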

Additional observations from a re-analysis of the deposited data

Results flagged for a closer look

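Among 36 groups of 8 values, 5 had a highest or lowest fetus whose gap to its neighbour exceeded Dixon's 95% critical share of the group's range. For normally distributed values, chance passes this limit in about 1 of 20 groups. Scores that are 0 where no peak was called are not so distributed, and a lone fetus without a peak can pass it easily. That rate is therefore no reference for the 5 flagged here. Corn fetus 4 had 417 peaks in the window, and the next corn fetus had 332. The same fetus stood apart at chr18:64336020-64336888, with 1.87 on the log2(scaled score + 1) scale against 1.25 for the next corn fetus. At the strongest region, chr18:64313968-64315449, corn fetus 13 stood at 3.08 against 2.82 for the next (3.075 and 2.823 before rounding). At chr18:64297370-64298642, the first region beyond the callipyge position, hay fetus 15 had no peak (0) and the next lowest hay fetus stood at 1.15. At chr18:64352298-64353153 corn fetus 9 had no peak (0) and the next lowest corn fetus stood at 0.842.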

How the results depend on the processing

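No region of the window passed the adjusted threshold under any of the 9 alternatives. The 3 regions called in the genome became 46 unscaled, 11 with a pseudocount of 5, 43 with the number of peaks as covariate and 43 without the filter, and 0 with percentiles, with peaks under the 25th percentile of their fetus left out, with presence, and with regions of at least 8 fetuses. The 6 of 256 window regions under an unadjusted p of 0.05 (genome 3.16%) became 13 of 256 unscaled (1 higher in hay, 12 in corn; genome 5.68%), 12 of 256 with the covariate (5 and 7; 4.99%), 11 of 148 with presence (2 and 9; 2.81%) and 2 of 224 without the weakest peaks (2 and 0; 3.24%). Without the weakest peaks, the unadjusted p (limma) was 0.0541 to 0.2268 at the 5 regions named for the smallest limma p. The 2 under 0.05 in that setting were therefore other regions. Of 14 named regions, 10 kept their direction under every alternative computed for them. Presence gave no value at the 6 named regions shared by all fetuses, and the filter of at least 8 fetuses none at 2 others. Unscaled, the difference became -0.11 at chr18:64022068-64031034, -0.17 at chr18:64073371-64076444, -0.057 at chr18:64297370-64298642 and -0.077 at the strongest region. With percentiles it became -0.0056 at chr18:64073371-64076444 and with presence -0.125 at chr18:64297370-64298642. The cause of these changes was not tested.

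The count of 108 shared regions became 82 without the weakest peaks, 106 with peaks merged within 100 bp and 107 with peaks wholly inside the window, and it ran from 108 to 110 when each fetus was left out in turn. The depth of the libraries, the dam and the sex of the fetuses are unknown here, which limits every comparison of diets. No paired analysis of the diets was possible, because the numbers in the labels are serial sample numbers and link no hay fetus to a corn fetus.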

Other observations

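One region within 23 kb before the callipyge position, chr18:64266774-64267941 (1168 bp), was picked out after its values were seen. It had a peak in every fetus and an unadjusted two-sided exact permutation p of 0.00777 (n = 8 per diet). That p was not corrected for the 256 tested regions of the window from which it was picked. The limma difference was 0.32 (SE 0.17), with an unadjusted p of 0.0571 and an adjusted p of 0.919.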
